A study of Mus musculus with 8 samples.

Results

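Nnat and 6 other imprinted genes, Peg3, Ndn, Snrpn, Impact, Zdbf2 and Plagl1, were followed in single-nucleus RNA sequencing of mouse brain. The 7 genes are members of the 54232 genes in the deposited count matrices, each found by its symbol. They were selected on the level of Nnat in astrocyte-like nuclei, which was lower after traumatic brain injury (TBI) in an earlier look at these counts, and because the other 6 are imprinted genes with expression in brain. The values of Nnat in astrocyte-like nuclei are therefore described without a test, and the question put to the data was whether the other members, and Nnat in other nuclei, moved with it.

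The mice were male, of the Swiss Webster stock and 10 weeks old, and the tissue was a small cube of forebrain beside the lesion. There were 8 libraries, 2 in each of 4 groups: mice with control surgery, with BCAS surgery, with TBI surgery, and with BCAS+TBI surgery. BCAS is given by the labels only as an abbreviation, and the study's title ties it to cerebral hypoperfusion, that is, reduced blood flow to the brain. The labels call the 2 libraries of a group biological replicates and give no time between surgery and collection.

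An imprinted gene is expressed mainly from the copy inherited from 1 parent, because marks laid down in the germ line differ between the maternal and paternal copies. All 7 genes are known to be expressed from the paternal copy, and several lie in clusters that share a control region. The counts carry no parental information, so only total RNA of each gene was measured. Nnat encodes neuronatin, a small membrane proteolipid of the endoplasmic reticulum linked to calcium handling. Peg3, Zdbf2 and Plagl1 encode zinc finger proteins, Ndn encodes necdin, a MAGE family protein of neurons, Snrpn encodes the spliceosomal protein SmN, and Impact encodes an inhibitor of the translation regulator GCN2.

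Nnat lies on chromosome 2 at chr2:157560078-157562522 on the plus strand (GRCm38, GENCODE M21), inside an intron of Blcap, which occupies chr2:157556362-157571274 on the minus strand. Ndn (chr7:62346569-62350262, plus strand) and Snrpn (chr7:59982495-60140219, minus strand) belong to 1 imprinted cluster on chromosome 7, and Peg3 (chr7:6703892-6730431, minus strand) to another. Zdbf2 is at chr1:63273265-63314576 and Plagl1 at chr10:13060504-13131694, both on the plus strand. Upstream sequences of 250 bases were taken from RefSeq (GRCm38.p6), where 6 of the 7 members had 10 promoters between them. The 8 letters CGCATGCG form the centre of the recognition sequence of the transcription factor NRF1 and read the same on both strands. They occurred upstream of Nnat, Ndn and Snrpn, 3 of the 6 genes, and in 5 of the 10 promoters. Several of these 5 are promoters of Snrpn with much the same sequence beside the letters. Another Snrpn promoter, at chr7:60005200-60005449 (minus strand), did not hold them. It lies next to the start of the overlapping gene Snurf (chr7:59995449-60005049, minus strand). The Snrpn promoters with the letters lie farther upstream, and which promoter was in use was not tested. Over all 32851 promoters of the table, 1.55% held these letters in the same window. By gene, 1.75% of 27025 genes had them in a promoter. A match is a description of the letters only. One promoter of each of the 3 genes is shown because they share this element, which is in capitals. The element was looked for after the levels had been seen, and no relation between it and the levels was tested. The windows are chr2:157559828-157560077 (plus strand) for Nnat, chr7:62348027-62348276 (plus strand) for Ndn and chr7:60140226-60140475 (minus strand) for Snrpn, each 5′ to 3′ and ending at the base before the transcript start.
Nnat: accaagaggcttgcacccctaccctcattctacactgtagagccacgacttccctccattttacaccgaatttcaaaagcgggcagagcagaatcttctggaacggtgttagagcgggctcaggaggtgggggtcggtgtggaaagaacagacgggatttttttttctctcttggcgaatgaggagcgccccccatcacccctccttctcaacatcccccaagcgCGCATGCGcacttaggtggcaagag
Ndn: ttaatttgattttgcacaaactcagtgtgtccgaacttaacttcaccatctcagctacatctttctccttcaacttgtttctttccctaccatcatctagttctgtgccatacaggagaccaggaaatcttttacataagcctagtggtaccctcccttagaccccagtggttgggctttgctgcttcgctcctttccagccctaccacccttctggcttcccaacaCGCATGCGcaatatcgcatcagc
Snrpn: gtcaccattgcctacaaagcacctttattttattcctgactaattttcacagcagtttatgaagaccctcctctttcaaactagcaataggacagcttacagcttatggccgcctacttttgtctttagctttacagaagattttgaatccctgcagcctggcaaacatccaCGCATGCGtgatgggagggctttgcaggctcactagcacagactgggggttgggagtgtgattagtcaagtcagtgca

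Across the 8 libraries, 53390 barcodes were deposited and 45557 nuclei were kept, 5048 to 7157 per library. Libraries held 28118725 to 56135192 unique molecular identifiers (UMIs, each a counted RNA molecule), and any 2 of them shared 5 to 20 barcode sequences. By total UMIs the libraries fell into 2 sets, each with 1 library of every group. Set 1 (control 1, BCAS 1, TBI 1 and BCAS+TBI 2) had up to 33363564 UMIs per library, and set 2 (control 2, BCAS 2, TBI 2 and BCAS+TBI 1) had at least 42651388. The set is a split by depth, with no label behind it, and it was a term in the fits reported here. A marker gate placed 32770 nuclei (71.9%) in 12 classes, named by markers only and so called astrocyte-like, microglia-like and so on. In the 3460 astrocyte-like nuclei (264 to 578 per library) the median share of UMIs was 1.52% for astrocyte markers and 0.139% for the markers of the other classes, and 209 nuclei lay near the limit of the gate. Neuron classes rest on fewer marker UMIs: the median share was 0.067% for own against 0.219% for other markers in excitatory neuron-like nuclei, of which 25.8% had 3 markers, and 0.0966% against 0.179% in inhibitory neuron-like nuclei. Levels are given as CPM, the UMIs of a gene in a class scaled so that all UMIs of that class in the library sum to 1000000. Values of the 4 libraries without TBI are listed in the order control 1, control 2, BCAS 1, BCAS 2, and those with TBI in the order TBI 1, TBI 2, BCAS+TBI 1, BCAS+TBI 2.

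Nnat had its highest mean in astrocyte-like nuclei. The mean over the 8 libraries was 617 ± 333 CPM (SD, n = 8) in astrocyte-like nuclei, 443 ± 133 in ependymal-like, 442 ± 207 in fibroblast-like and 228 ± 70.7 in oligodendrocyte precursor-like nuclei. It was lower in the neuron classes, at 131 ± 45.5 CPM in striatal projection neuron-like, 96.0 ± 42.6 in excitatory neuron-like and 72.6 ± 32.9 in inhibitory neuron-like nuclei. The lowest means were in oligodendrocyte-like (63.5 ± 33.1), mural-like (58.3 ± 29.8), microglia-like (43.2 ± 31.5), endothelial-like (32.6 ± 16.3) and choroid plexus-like nuclei (26.3 ± 21.1). The ranges of any 2 neighbours in this order overlapped. The ependymal-like and fibroblast-like values rest on few nuclei, 3 to 39 and 13 to 56 per library.

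**Figure D1:**
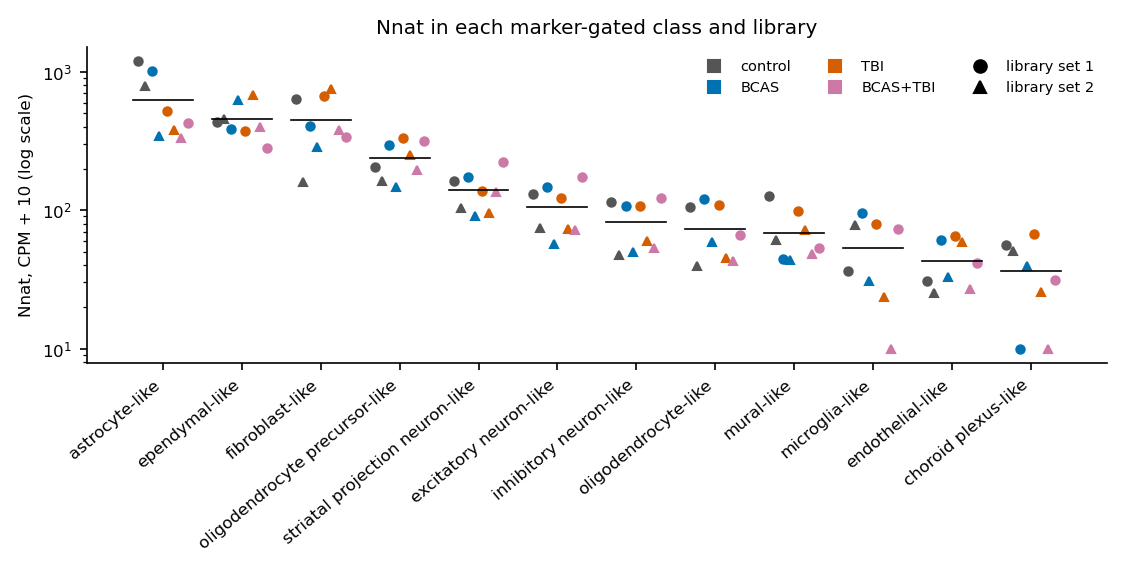
Nnat in each marker-gated class, as CPM + 10 on a log scale, with 1 point per library, colour for the group, shape for the library set and a line at the mean of 8 libraries. Astrocyte-like nuclei have the highest mean, 617 CPM, and within most classes the circles of set 1 lie above the triangles of set 2.

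Within neurons, Nnat was highest in the 705 nuclei with markers of peptidergic neurons (Baiap3, Resp18, Zcchc12 and Hap1), at 201 ± 67.8 CPM (SD, n = 8). It was 98.3 ± 44.2 CPM in layer 6 cortical neuron-like and 62.4 ± 26.5 in upper-layer cortical neuron-like nuclei, and 31.2 in Vip-positive inhibitory nuclei. The same peptidergic nuclei had the highest mean of Zdbf2 among the 10 neuron subclasses, 124 ± 11.4 CPM, and the highest of Plagl1, 29.5 ± 8.54 CPM. Peg3 was highest in Pvalb-positive nuclei, at 564 ± 46.9 CPM, and was 493 ± 53.2 in thalamic neuron-like nuclei.

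The other members had their highest means in other classes. Peg3 had 434 ± 26.9 CPM in inhibitory neuron-like nuclei, where its range (381 to 473) lay above that of every other class, and 146 ± 21.6 in astrocyte-like nuclei. Snrpn had the same order among the neuron classes, with 235 ± 18.6 CPM in inhibitory neuron-like nuclei, above the range of every other class except ependymal-like, and 38.1 ± 10.9 in astrocyte-like nuclei. Impact was spread more evenly, from 139 ± 11.0 CPM in inhibitory neuron-like to 49.7 ± 21.7 in endothelial-like nuclei. Zdbf2 was highest in striatal projection neuron-like nuclei, at 73.8 CPM (61.0 to 95.8), against 11.2 ± 5.14 in astrocyte-like nuclei. Plagl1 was highest in choroid plexus-like nuclei, at 83.4 ± 21.1 CPM, and had 0 UMIs in microglia-like nuclei of all 8 libraries. Ndn was low throughout, with class means of 8.23 to 35.2 CPM, and the highest mean, in mural-like nuclei, rests on 9 UMIs. Over the 12 class means, the correlation of log2(CPM + 10) with Nnat was between -0.09 and 0.24 for the 6 other members, a description of classes that share libraries.

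**Figure D2:**
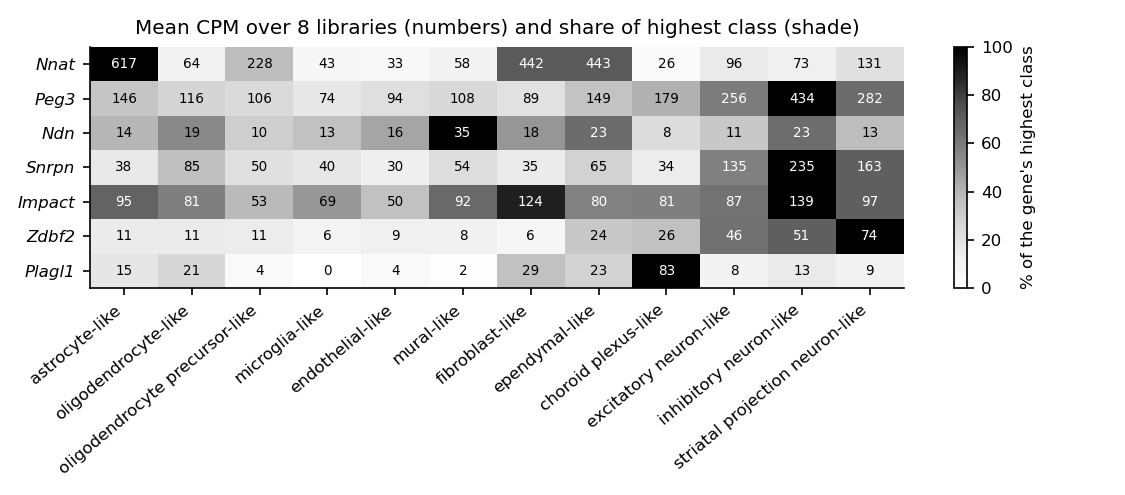
Mean CPM of each member over 8 libraries in each class (numbers), with shading for the percent of that gene's highest class. Nnat is darkest in astrocyte-like nuclei, Peg3, Snrpn and Impact in inhibitory neuron-like, Zdbf2 in striatal projection neuron-like and Plagl1 in choroid plexus-like nuclei, while the Ndn maximum in mural-like nuclei rests on 9 UMIs.

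The genes most like Nnat over the 12 classes were Igdcc4 (r = 0.86), Slc4a4 (0.86), Pamr1 (0.85), Eya1 (0.83) and Ckb (0.82), by Pearson correlation of log2(CPM + 10) among 5234 genes with at least 100 CPM in a class. Slc4a4 was also 1 of the markers of the astrocyte gate. Over the 8 libraries of astrocyte-like nuclei, the nearest of the 1739 genes with a mean of at least 100 CPM were Timp3 (r = 0.85), Mpc1 (0.85), Paxbp1 (0.83), Cyp2j6 (0.83) and Aplp1 (0.81). Blcap, the host gene of Nnat, had a mean of 67.3 CPM and so was not among the genes compared, and its r over the same 8 libraries was 0.91, above all 5 of them. No member is in either group, but not all could be. Of the other members, only Peg3 reached a mean of 100 CPM in astrocyte-like nuclei, and only Peg3, Snrpn and Impact did so in a class. Over the 8 libraries of astrocyte-like nuclei, r with Nnat was 0.60 for Ndn, 0.49 for Snrpn and 0.29 for Peg3. It was 0.06 for Impact, -0.17 for Plagl1 and -0.28 for Zdbf2. These correlations describe 12 classes or 8 libraries and carry no test. Those over libraries did not take out the difference between the library sets. In astrocyte-like nuclei Nnat, Ndn and Snrpn were higher in set 1 (log2 fold change 0.77, 0.99 and 0.72). The other members were not, and the part of the sets in these correlations was not tested.

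In astrocyte-like nuclei, Nnat was 1180.2 CPM in control 1 and 786 in control 2, and 1010.2 in BCAS 1 and 335 in BCAS 2. With TBI it was 513 CPM (TBI 1) and 372 (TBI 2), then 321 (BCAS+TBI 1) and 418 (BCAS+TBI 2). Of the 4 libraries without TBI surgery, 3 lay above all 4 with it, and BCAS 2 lay among the TBI libraries. The fitted log2 fold change was -0.93 (SE 0.14) for TBI surgery averaged over BCAS, -0.45 (SE 0.14) for BCAS averaged over TBI and -1.38 (SE 0.20) for BCAS+TBI against control. With TBI as the reference, BCAS+TBI gave -0.21 (SE 0.21), and the interaction, which is the difference in the effect of TBI with and without BCAS, was 0.48 (SE 0.29). These values chose the members and are given as a description, and the comparisons share libraries. Of the 11234 genes fitted in astrocyte-like nuclei, 56 had a lower fold change for TBI than Nnat.

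In the same counts, the share of nuclei with Nnat was lower in every TBI library than in control 1, control 2 and BCAS 1. This too is a description, and BCAS 2 lay among the TBI libraries. A Nnat UMI was found in 51.3% and 54.8% of astrocyte-like nuclei of control 1 and 2, 58.1% and 37.1% of BCAS 1 and 2, 45.0% and 33.0% of TBI 1 and 2, and 34.4% and 35.7% of BCAS+TBI 1 and 2. With each nucleus thinned to 1000 UMIs, which left out 25 to 71 shallower nuclei per library, the shares were 42.4% and 39.9%, 51.5% and 23.3%, 31.4% and 25.2%, and 21.4% and 25.0% in the same order. Choroid plexus-like nuclei, with median depths of 1844 to 4041 UMIs against 1494 to 2462, had a Nnat UMI in 0 to 17.6% of nuclei per library. Within set 1, the log2 ratio of CPM was -1.20 for TBI over control and -1.27 for BCAS+TBI over BCAS. Within set 2 it was -1.08 for TBI over control and -0.06 for BCAS+TBI over BCAS, where BCAS 2 was already low. The fitted values depended on the BCAS libraries, which differed from each other. Without BCAS 2 the change was -1.14 for TBI, -0.23 for BCAS and 0.01 for the interaction, and without BCAS 1 it was -0.64, -0.74 and 1.03. For BCAS+TBI against TBI it was 0.01 without BCAS+TBI 2 and -0.42 without BCAS+TBI 1, so its direction was not settled.

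Nnat RNA also differed within the class. Agt and Slc6a11 are markers of astrocytes outside the telencephalon. Clustering gave 2 astrocyte-like clusters, of which the one with high Slc6a11 (1729.8 ± 207 CPM) had 1039 ± 548 CPM of Nnat and the other (Slc6a11 425 ± 53.4) had 423 ± 263 (SD, n = 8). In the cluster with high Slc6a11, Nnat was 2004, 1287, 1669 and 638 CPM without TBI, and 834, 589.7, 654 and 636 with it. In the other cluster it was 770.3, 544, 829 and 154 CPM without TBI, and 397, 209, 225 and 259 with it. BCAS 2 was thus the lowest library without TBI in both clusters. The share of astrocyte-like nuclei with an Agt or Slc6a11 UMI was 63.7% ± 2.25 with TBI and 66.3% ± 2.27 without (SD, n = 4), a difference of -2.64 points (exact two-sided permutation test, p = 0.171, where the smallest possible p is 0.0286). Under the other settings tried for this share the difference was -3.99 to -1.74 points, with p from 0.0571 to 0.343 by the same test. The p of 0.0571 was without control 1. There every remaining library without TBI lay above every library with it, and no smaller p was possible. By clusters the difference was larger: the cluster with high Slc6a11 held 34.6%, 29.6%, 30.9% and 39.6% of the nuclei of both clusters without TBI, and 24.2%, 32.2%, 23.7% and 28.2% with it. This share was looked at after its values were seen, and it differed by -6.58 points with overlapping groups (exact two-sided permutation test, p = 0.0857). With an Agt or Slc6a11 UMI, Nnat was 1249, 863, 1133 and 351 CPM without TBI and 535, 364, 349.9 and 379 with it, and in nuclei with neither it was 1043, 586, 661 and 292, then 459, 388, 254 and 501. The part of these shares in the level of Nnat was not tested.

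Gfap, which encodes an intermediate filament protein raised in reactive astrocytes, was 165, 135, 195 and 112 CPM in astrocyte-like nuclei without TBI. It was 617, 212, 223 and 322 CPM with TBI. All 4 libraries with TBI were thus above all 4 without, and the part of this in the level of Nnat was not tested.

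In the same nuclei the 6 other members were tested, and none passed. The p-values measure the spread between libraries labelled as biological replicates that is left after the library set term. The 2 libraries of a group lie in different sets, so this term takes up the part of their difference that the groups share. Peg3 was 161, 151, 149 and 183 CPM without TBI, and 129, 149, 113 and 131 with it. The groups did not overlap, but BCAS 1 (149.23) and TBI 2 (149.10) were nearly equal, and the log2 fold change for TBI was -0.31 (SE 0.13, unadjusted p = 0.0235, edgeR adjusted p = 1.00). Ndn was 18.5, 8.57, 27.2 and 15.9 CPM without TBI and 14.7, 7.36, 5.41 and 14.4 with it, which are 4 to 23 UMIs per library. Its fold change was -0.71 (SE 0.31, unadjusted p = 0.0368, edgeR adjusted p = 1.00). A Ndn UMI was found in 1.20% to 4.63% of astrocyte-like nuclei per library against 0 to 7.14% of choroid plexus-like nuclei. The latter were only 17 to 58 nuclei per library, so whether Ndn was above background was not settled.

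Snrpn and Impact stayed near 0 for TBI, at -0.10 (SE 0.19) and 0.05 (SE 0.13). Impact, with 51 to 128 UMIs per library, lay between 83.8 and 105 CPM in all 8 libraries. Zdbf2 and Plagl1 were too sparse for a small difference to be detected, with 4 to 27 and 9 to 17 UMIs per library, and their fold changes were -0.39 (SE 0.36) and 0.21 (SE 0.34). The direction of Snrpn, Impact and Plagl1 turned when single libraries were left out. For TBI, 4 of the 6 had a fold change below 0, and their median was -0.21, against a median of 0.00 over all genes fitted in the class.

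**Figure D3:**
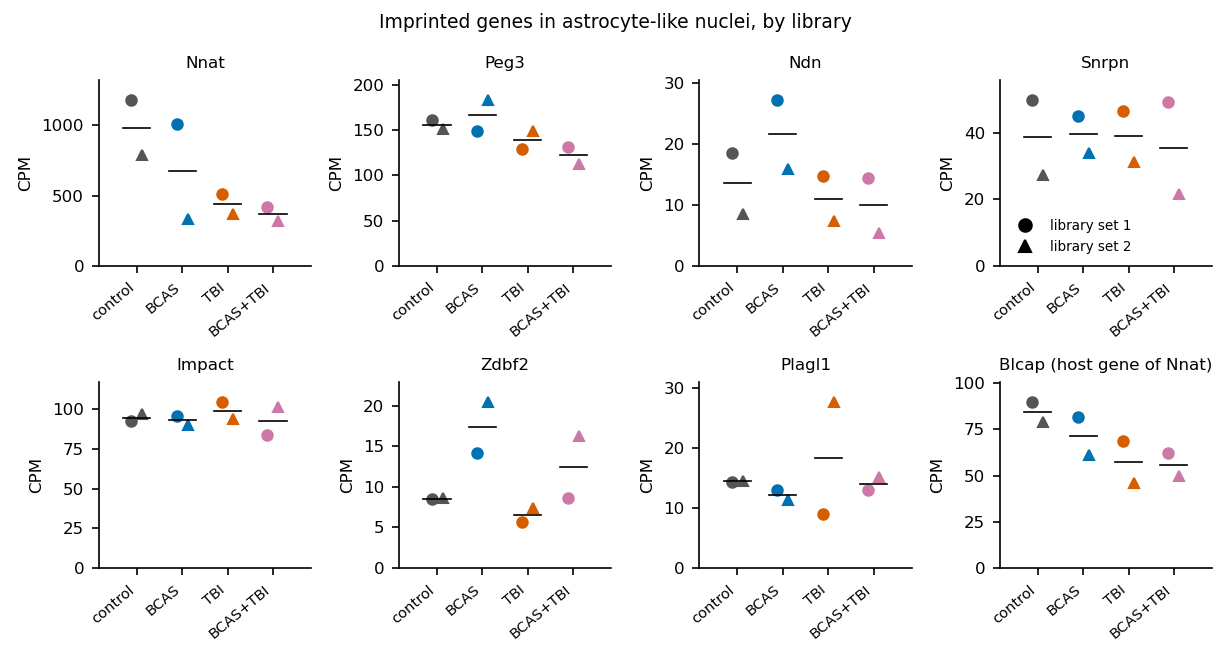
CPM of the 7 members and of Blcap, the host gene of Nnat, in astrocyte-like nuclei, with 1 point per library, shape for the library set and a line at the mean of the 2 libraries of a group. Nnat spans 321 to 1180.2 CPM, with 3 of the 4 libraries without TBI above all 4 with it, while Impact spans 83.8 to 105 CPM.

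Blcap, whose intron holds Nnat on the opposite strand, was 89.8, 78.9, 81.7 and 61.3 CPM in astrocyte-like nuclei without TBI. It was 68.6, 46.0, 49.8 and 62.1 CPM with TBI. As for Nnat, BCAS 2 was the lowest library without TBI, and here it lay just below BCAS+TBI 2. The log2 fold change for TBI was -0.44 (SE 0.15, unadjusted p = 0.00857, edgeR adjusted p = 1.00), so Blcap did not pass. Whether counting used the strand is not given in the sources used here, and whether reads of 1 gene were counted for the other was not tested. Of the other neighbours in astrocyte-like nuclei, Snhg14, the long noncoding RNA next to Snrpn, had a fold change of -0.06 (SE 0.14), and Ube3a, the ubiquitin ligase gene beyond it, 0.11 (SE 0.13).

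Outside astrocyte-like nuclei, Nnat passed for TBI in none of the 6 other classes tested. In oligodendrocyte precursor-like nuclei it was 194, 154, 285 and 137 CPM without TBI, and 321, 239.9, 185 and 306 with it. Within each library set both log2 ratios with TBI were above 0, from 0.10 to 0.73, and the groups overlapped when the sets were pooled. The fitted change was 0.49 (SE 0.16, unadjusted p = 0.00439, edgeR adjusted p = 0.981), and it did not pass. The fold change for TBI was 0.13 (SE 0.11) in excitatory neuron-like, 0.17 (SE 0.09) in inhibitory neuron-like, 0.18 (SE 0.12) in striatal projection neuron-like, 0.54 (SE 0.45) in endothelial-like and -0.29 (SE 0.20) in oligodendrocyte-like nuclei. The difference between classes was not tested. Nnat did not pass the filter on low counts in microglia-like and mural-like nuclei, which hold 33 and 19 UMIs of it.

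**Figure D4:**
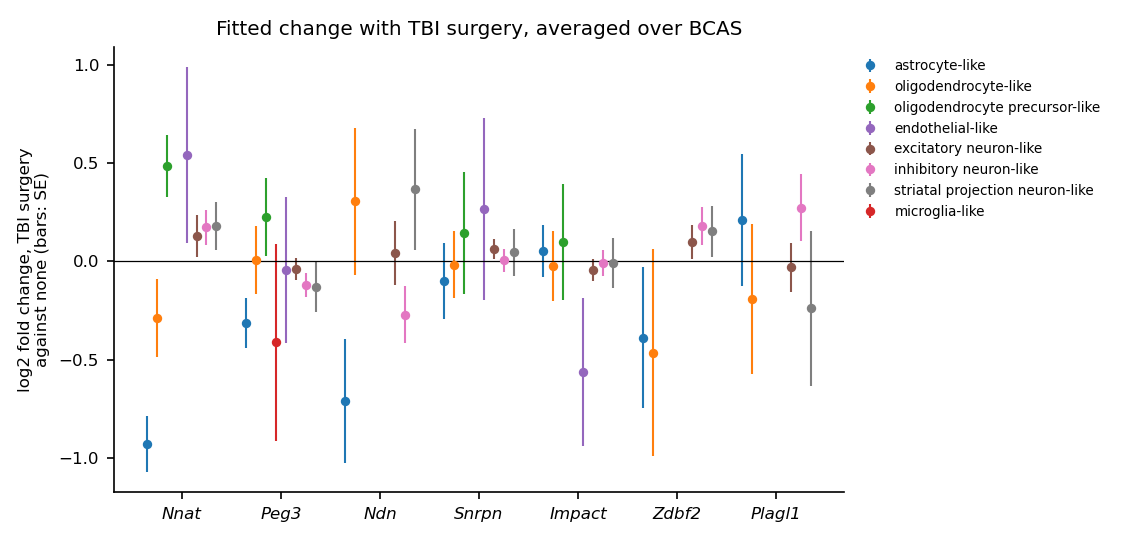
Fitted log2 fold change of each member for TBI surgery against none, averaged over BCAS, with 1 point per class and bars of 1 SE. The lowest point is Nnat in astrocyte-like nuclei at -0.93, Nnat in oligodendrocyte precursor-like nuclei is at 0.49, and the points of the other members lie on both sides of 0.

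Counted over all classes, the members gave 43 class-gene pairs beside Nnat in astrocyte-like nuclei. By gene, 7 of 9 tested classes passed the filter for Nnat, Snrpn and Impact, 8 for Peg3 and 5 for Ndn, Zdbf2 and Plagl1. None of the 43 pairs passed an edgeR adjusted p of 0.05 for TBI averaged over BCAS, where 0.00469% of all 85321 pairs passed, and none for BCAS averaged over TBI, where 0.0129% passed. Against control, BCAS+TBI gave none (0.00234% of all pairs passed), and against TBI it also gave none (0% of all pairs). The interaction gave none either (0.00234%). At an unadjusted p under 0.05 there were 3, 2, 1, 3 and 5 member pairs in this order, against 4.56%, 4.13%, 3.51%, 4.2% and 4.66% of all pairs, and DESeq2 also called 0 in each. For TBI, 21 of the 43 pairs were below 0 and their median log2 fold change was 0.01, against 0.01 over all pairs.

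Among the pairs with an unadjusted p under 0.05, Nnat in striatal projection neuron-like nuclei was in 4 of the 5 comparisons, all of which use the same 2 BCAS+TBI libraries. It was 152, 94.1, 164 and 81.4 CPM without TBI, and 128, 85.2, 126 and 214 with it. Within each set the BCAS+TBI library was above the TBI library. The fold change for BCAS+TBI against TBI was 0.64 (SE 0.17, unadjusted p = 0.00292, edgeR adjusted p = 1.00), and with classes taken from clusters it was -0.06. Zdbf2 in the same nuclei was 61.0 and 66.6 CPM in the TBI libraries, against 95.8 and 86.5 with BCAS+TBI, a fold change of 0.50 (SE 0.18, unadjusted p = 0.0182, edgeR adjusted p = 1.00) that was 0.13 with classes from clusters. The pairs not named elsewhere were Zdbf2 in excitatory neuron-like, Nnat in endothelial-like and Nnat in oligodendrocyte-like nuclei for the interaction, and Plagl1 in inhibitory neuron-like nuclei for BCAS+TBI against TBI. In striatal projection neuron-like nuclei 21.5% of nuclei lay near the limit of the gate. In astrocyte-like nuclei, Zdbf2 had a fold change of 0.98 (SE 0.35) for BCAS averaged over TBI (unadjusted p = 0.0123, edgeR adjusted p = 1.00), on 87 UMIs in all.

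A list of 59 other imprinted genes, drawn from general knowledge, was read in the same fits. It takes in genes imprinted in placenta or brain, whichever parental copy is expressed. Of the 59 genes, 58 are in the matrices and 49 were tested in at least 1 class, giving 265 class-gene pairs. None passed in any of the 5 comparisons, and 19, 13, 15, 17 and 18 pairs had an unadjusted p under 0.05 in the order used above, against 4.56%, 4.13%, 3.51%, 4.2% and 4.66% of all pairs. For TBI, 141 of 265 pairs (53.2%) were below 0, against 48.8% of all pairs, and their median was -0.01. In astrocyte-like nuclei 31 genes of the list were tested for TBI, of which 18 had a fold change below 0 and 6 had an unadjusted p under 0.05, with a median of -0.06. Of all 11234 genes fitted there, 49.5% were below 0 and 5.39% had an unadjusted p under 0.05, a smaller share than 6 of 31. The 6 genes are named here after their values were seen. Lower with TBI were Inpp5f (-0.49), Blcap (-0.44), Cobl (-0.86), Rasgrf1 (-0.33) and Grb10 (-0.69), and Ano1 (0.85) was higher. None of them passed, and the list was not tested as a set.

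Between the library sets, 15 of 44 member pairs passed, 12 higher and 3 lower in set 1, against 36.7% of all pairs, 20.4% higher and 16.3% lower, so the share of members was near the background. DESeq2 called 8 of 44. In the list of other imprinted genes, 109 of 265 pairs passed, 35 higher and 74 lower in set 1. Of those 265 pairs, 62.6% were below 0, against 49.7% of all pairs. In excitatory neuron-like nuclei 55.8% and in inhibitory neuron-like nuclei 47.9% of all genes passed. Nnat was higher in set 1 in 6 of its 7 tested classes. In inhibitory neuron-like nuclei it was 104, 96.3, 98.0 and 113 CPM in the libraries of set 1 (control 1, BCAS 1, TBI 1 and BCAS+TBI 2) and 37.3, 39.7, 49.6 and 42.9 in those of set 2 (control 2, BCAS 2, TBI 2 and BCAS+TBI 1), with no overlap. The log2 fold change of set 1 over set 2 was 1.14 there (SE 0.09, edgeR adjusted p = 1.67e-07), 1.26 in oligodendrocyte-like (SE 0.20, edgeR adjusted p = 0.00015), 0.97 in excitatory neuron-like (SE 0.11, edgeR adjusted p = 5.15e-05) and 0.77 in astrocyte-like nuclei (SE 0.14, edgeR adjusted p = 0.0004).

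Ndn and Snrpn went the same way in part of the classes. Ndn was higher in set 1 in excitatory neuron-like (1.04) and inhibitory neuron-like nuclei (0.95). Its value of 0.99 in astrocyte-like nuclei passed on 4 to 23 UMIs per library, where it was not settled whether Ndn was above background. Snrpn rose in astrocyte-like (0.72), oligodendrocyte-like (0.51) and excitatory neuron-like nuclei (0.17). Peg3 was lower in set 1 in excitatory neuron-like nuclei (-0.32), and Plagl1 in oligodendrocyte-like (-1.05) and striatal projection neuron-like nuclei (-1.44). No pair of Impact or Zdbf2 passed. Because each set holds 1 library of every group, the set is not confounded with the surgeries. Set 1 also had higher shares of mitochondrial UMIs, 1.20% to 2.77% against 0.511% to 1.04%, and the part of this in the difference was not tested.

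**Figure D5:**
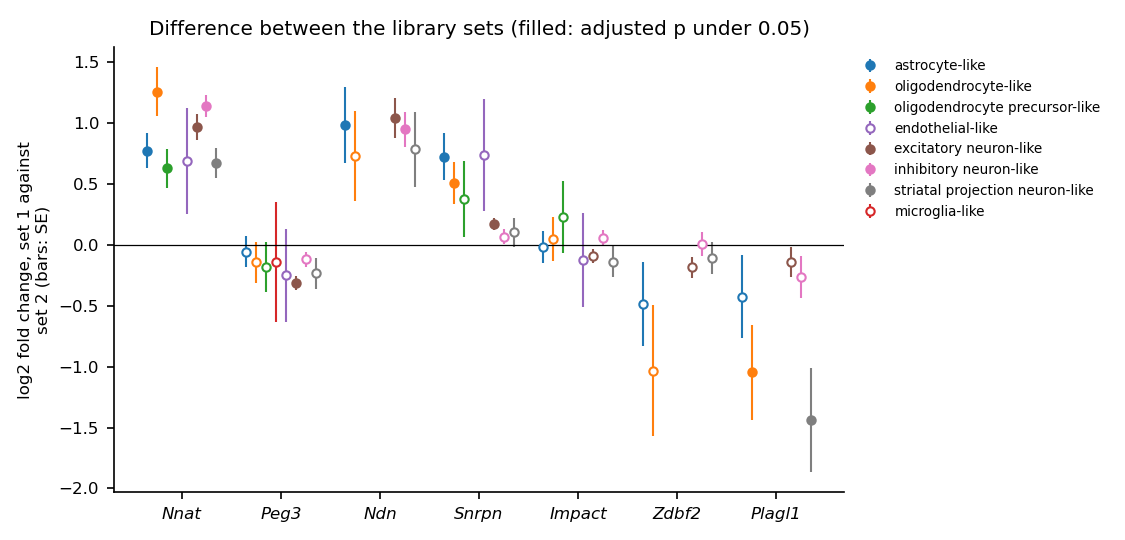
Fitted log2 fold change of each member for library set 1 over set 2, with 1 point per class, bars of 1 SE and filled points where the edgeR adjusted p was under 0.05. All 7 points of Nnat lie above 0, 6 of them filled, and all 8 points of Peg3 lie below 0.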

How the data were processed

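For each library the authors deposited a matrix of raw UMI counts, written by Cell Ranger 7.0.0 according to its header. The submitters' processing notes also name Seurat and the builds GRCm38 and mm10, without a role. Barcodes were dropped below 500 UMIs or 300 genes, or above a mitochondrial share of 5% (4922 barcodes), and the 6% with the highest Scrublet score per library (scanpy 1.11.5) were removed as doublets (2911).

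Each nucleus was gated by its share of UMIs in fixed markers: at least 0.3 of the typical share of a class, at most 0.5 of that for any other class, and at least 2 UMIs. Counts were summed per library and class, and the 9 classes that reached 20 nuclei per library throughout were fitted with edgeR 4.0.16 (TMM, minimum count 10, quasi-likelihood test, two-sided) with terms for group and library set. The p-values were adjusted by Benjamini and Hochberg over all class-gene pairs of a comparison. The scripts were tested on simulated data. The test of the library set term was added after the design was written.

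The members, markers and lists were chosen with earlier results of these data known. Named genes are the 7 members, their locus neighbours and the 5 genes most like Nnat by each correlation. Those 5 were taken among genes with a mean of at least 100 CPM. Genes of the imprinted list are named if they passed, or after their values were seen where this is stated. Alternatives were DESeq2 1.42.0, RLE normalization, other count filters, adjustment per class, classes from Leiden clusters (igraph 0.11.9), a stricter gate, removal of nuclei over 3 times the median UMIs, doublets kept, other blocks and leaving out each library.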

Additional observations from a re-analysis of the deposited data

How the results depend on the processing

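Under the 19 other settings, no member pair passed in any of the 5 comparisons, and the smallest adjusted p of one was 0.416 (Peg3 in endothelial-like nuclei, interaction, without control 1). No pair of the imprinted list passed with the settings of the report. Single pairs, named here after their values were seen, passed under 3 others. With no filter on low counts these were 1 for TBI averaged over BCAS (Meg3 in oligodendrocyte-like nuclei), 1 for BCAS averaged over TBI (Meg3 in astrocyte-like nuclei), 1 for BCAS+TBI against control (Ano1 in astrocyte-like nuclei) and 2 for the interaction (Meg3 and Calcr). With classes from clusters it was 1 for BCAS+TBI against control (Meg3 in endothelial-like nuclei), and leaving out single libraries gave 0 to 1 for BCAS averaged over TBI. The causes were not tested. The fold change of Nnat in astrocyte-like nuclei for TBI was -1.14 to -0.64 over the 19 settings.

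Some directions turned, among pairs that did not pass and in Nnat in astrocyte-like nuclei for BCAS+TBI against TBI, which was described without a test and was -0.42 to 0.0058 when libraries were left out. For TBI in astrocyte-like nuclei, Snrpn was 0.0707 with doublets kept, and leaving out libraries gave -0.259 to 0.0677, above 0 without BCAS 2 (0.03) and without BCAS+TBI 1. Leaving out libraries gave -0.0193 to 0.116 for Impact, below 0 without TBI 1 (-0.02) and without BCAS+TBI 1, and -0.199 to 0.581 for Plagl1, below 0 without TBI 2. With classes from clusters, Nnat in striatal projection neuron-like nuclei was -0.135 for the double surgery against control, -0.0625 against TBI and -0.136 for the interaction. DESeq2 called 8 member pairs for the library set against 15, and leaving out libraries gave 10 to 15.

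The replicate numbers followed the library sets in control, BCAS and TBI, and ran the other way in BCAS+TBI, so they did not pair the samples of all groups. Deviations of same-numbered astrocyte-like libraries correlated from -0.75 to 0.74 over pairs of groups, 6 of 12 over 0.1, and those of the same set from 0.61 to 0.75. Without a library set term, 0 member pairs had an unadjusted edgeR p under 0.05 for TBI averaged over BCAS, against 3 with it. Of all 85321 pairs, 732 did, against 3891 with it. With a replicate block in place of the library set, 0 member pairs and 0 of all 85321 pairs passed for the same comparison. Of these pairs, 4 passed with the library set. DESeq2 called 6 of them, and 306 of 220913 pairs passed with no filter on low counts.

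Depth limits Ndn, Zdbf2 and Plagl1, which had at most 27 UMIs per library in astrocyte-like nuclei.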

Other observations

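Ube3a and Snhg14, neighbours of Snrpn, differed between the library sets in the neuron classes. Ube3a, the ubiquitin ligase gene that is imprinted in neurons, was 1280.4, 1184, 1210.5 and 1491 CPM in inhibitory neuron-like nuclei of set 1 (control 1, BCAS 1, TBI 1 and BCAS+TBI 2). It was 474, 414, 498 and 463 CPM in set 2 (control 2, BCAS 2, TBI 2 and BCAS+TBI 1), with no overlap. The log2 fold change of set 1 over set 2 was 1.34 there (SE 0.07, edgeR adjusted p = 9.64e-10), 1.32 in excitatory neuron-like (SE 0.06, edgeR adjusted p = 2.26e-07) and 1.26 in striatal projection neuron-like nuclei (SE 0.11, edgeR adjusted p = 6.11e-06). In astrocyte-like nuclei it was -0.04 (SE 0.13, edgeR adjusted p = 0.819), with 115 to 188 CPM over the 8 libraries. The difference between classes was not tested.

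Snhg14, the noncoding RNA whose far end overlaps Ube3a on the opposite strand, went the other way. In inhibitory neuron-like nuclei it was 949 to 1098 CPM in set 1 and 1352 to 1463 in set 2, a log2 fold change of -0.58 (SE 0.06, edgeR adjusted p = 1.67e-06). In astrocyte-like nuclei the fold change was -0.98 (SE 0.14, edgeR adjusted p = 3.47e-05).

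These 2 genes were singled out after their values were seen. The use of strand in counting is not given in the sources used here, and whether reads of the 2 overlapping genes were mixed was not tested.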
